A study of Homo sapiens with 12 samples.

Results

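The RUNX proteins RUNX1, RUNX2 and RUNX3, their shared DNA-binding partner CBFB and the corepressor RUNX1T1 were examined for accessible chromatin in HT1080 cells, an established human fibrosarcoma line. The 5 genes were a fixed list, out of 20037 protein-coding genes in the RefSeq gene table for GRCh38. Their accessible sites were the deposited peak summits, the positions of strongest signal within a called interval, that lay inside a gene or within 50 kb of it. Of 188019 summits in the list, 70 met this rule, in 56 intervals.

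The series used ATAC-seq, which marks open DNA by the insertion of sequencing adapters by a transposase. HT1080 cells migrated for 48 h in rat tail type I collagen at 0.3 mg/mL (low), 1 mg/mL (medium) or 1.7 mg/mL (high), with 4 libraries in each group, 12 in all. All groups carried the same treatment, the metalloproteinase inhibitor GM6001 at 20 µM, and none of them was free of it. The peak list was pooled over the series and names no library or collagen concentration, so no value below compares concentrations, none has a replicate and no test was possible. The depth of each library is unknown here.

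RUNX proteins bind DNA through the runt domain, and CBFB, which does not bind DNA itself, joins that domain and strengthens the contact. RUNX1 is best known for blood formation, RUNX2 for bone and cartilage, and RUNX3 for T cells, sensory neurons and the gut lining. Each of the 3 genes has a distal promoter at its 5′ end and a proximal promoter further in, which give proteins with different first residues. RUNX1T1, also called ETO, recruits corepressor complexes and is joined to RUNX1 in a leukaemia translocation.

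The starts of the RUNX genes are shown first, because the genes differed in which start was open. Each sequence is the 250 bases before a start, 5′ to 3′ on the gene's strand, from RefSeq GRCh38.p14. The RefSeq promoter table matched 3 of the 5 genes, RUNX1, RUNX2 and RUNX3. It gave both starts of RUNX2 and RUNX3 and the proximal start of RUNX1; the distal start of RUNX1 was taken as the 5′ end of the gene. For the distal starts, capitals mark the RUNX motif TGTGGT or its reverse complement ACCACA.

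RUNX2 distal, chr6:45328080-45328329, plus strand: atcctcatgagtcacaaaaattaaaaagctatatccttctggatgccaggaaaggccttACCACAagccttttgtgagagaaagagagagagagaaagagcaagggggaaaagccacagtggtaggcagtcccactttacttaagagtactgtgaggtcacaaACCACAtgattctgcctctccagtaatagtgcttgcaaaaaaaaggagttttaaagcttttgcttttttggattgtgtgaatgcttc

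RUNX3 distal, chr1:24965011-24965260, minus strand: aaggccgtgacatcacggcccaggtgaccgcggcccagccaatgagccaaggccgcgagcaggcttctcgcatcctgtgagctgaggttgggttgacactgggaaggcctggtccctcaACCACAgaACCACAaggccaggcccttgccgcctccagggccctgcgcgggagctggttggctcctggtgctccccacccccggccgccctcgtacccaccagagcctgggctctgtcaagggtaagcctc

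For the proximal starts, capitals mark the GC box GGGCGG, a motif bound by SP-family factors, or its reverse complement CCGCCC.

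RUNX1 proximal, chr21:34888700-34888949, minus strand: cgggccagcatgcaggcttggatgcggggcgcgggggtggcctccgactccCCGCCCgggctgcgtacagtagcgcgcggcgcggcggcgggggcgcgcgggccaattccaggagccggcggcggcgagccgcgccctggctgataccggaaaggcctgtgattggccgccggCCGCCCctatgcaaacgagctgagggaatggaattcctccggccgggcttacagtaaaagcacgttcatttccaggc

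RUNX2 proximal, chr6:45422025-45422274, plus strand: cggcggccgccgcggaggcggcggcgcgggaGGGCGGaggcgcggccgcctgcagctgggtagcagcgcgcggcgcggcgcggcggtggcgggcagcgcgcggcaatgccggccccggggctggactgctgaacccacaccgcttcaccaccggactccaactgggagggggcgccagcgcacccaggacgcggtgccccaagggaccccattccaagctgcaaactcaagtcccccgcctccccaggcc

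RUNX3 proximal, chr1:24930277-24930526, minus strand: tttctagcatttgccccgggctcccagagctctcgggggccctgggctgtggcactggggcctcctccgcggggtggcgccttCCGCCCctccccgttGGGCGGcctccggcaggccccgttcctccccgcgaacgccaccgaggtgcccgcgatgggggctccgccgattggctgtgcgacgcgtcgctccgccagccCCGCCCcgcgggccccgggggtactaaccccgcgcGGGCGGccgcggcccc

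Motifs were searched on both strands in 300 bases, 250 before and 50 after each start. The RUNX motif was present 4 times at the RUNX2 distal start and 2 times at the RUNX3 distal start, and at none of the 3 proximal starts. Of the 4 at RUNX2, 2 lie after the start and so beyond the sequence shown. Of 35116 promoters of the same length, 13.1% held it at least once and 1.31% at least 2 times. GC boxes numbered 3 at the RUNX1 proximal start, 1 at the RUNX2 proximal start and 4 at the RUNX3 proximal start, against 0 and 1 at the distal starts of RUNX2 and RUNX3; 45.0% of all promoters held one. The distal starts of RUNX2 and RUNX3 also shared a tandem of 2 RUNX motifs, ACCACAGAACCACA, in which the second motif began 8 bp after the first. This tandem, chosen after the sequences were seen, occurred in 3 of 35116 promoters, those of RUNX2, RUNX3 and the olfactory receptor gene OR52N2. Both copies are shown on the gene's strand with the motifs in capitals and some neighbouring bases in small letters. The distance given with each is that of its first capital letter.

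RUNX2, chr6:45328342-45328363, from base 17 after the start: aacaACCACAgaACCACAagtg

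RUNX3, chr1:24965124-24965145, from 131 bases before the start: ctcaACCACAgaACCACAaggc

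In RUNX3 the summit at the distal start, at 24965131, lay inside the tandem. In RUNX2 the nearest summit to the tandem was the one at 45378045, 49715 bp from the distal start. A match is a description of letters and not a measurement of binding.

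The accessible starts differed among the genes. Of the 5, 4 had a summit within 1000 bp of an annotated start (of either gene end for CBFB and RUNX1T1, for which the tables used give no strand), and RUNX1T1 had none. Over all protein-coding genes the share by the same rule was 67.0%. The enrichment given with each summit is the authors' fold over the local background. The pileup, the number of sequenced pieces overlapping the summit, and that background were recovered from the enrichment and the deposited p-value. These pieces are called fragments below. Whether the peak caller counted whole fragments or single reads is not given in the sources used here.

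RUNX1 was open at both starts. At the distal start, position 35049302 on chromosome 21, a summit at distance 0 had an enrichment of 8.08, and 733 fragments overlapped it, over a background of 89.9. At the proximal start, 34888699, the strongest summit lay 50 bp upstream, with 7.99-fold enrichment and 1246 fragments over a background of 155.1. The enrichments of the 2 starts were thus nearly equal, whereas the pileup was higher at the proximal start. The proximal interval spanned 2380 bp, longer than 99.2% of the intervals at 17951 promoters with a summit, while the distal one spanned 892 bp, against a median of 919 bp.

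RUNX2 was open at the proximal start only, among its 2 starts. No summit lay within 1000 bp of the distal start at 45328330 on chromosome 6, and the nearest was 49715 bp away. At the proximal start, 45422275, 3 summits were called, with enrichments of 2.97, 6.77 and 3.19. The strongest lay 85 bp upstream, and the pileup was 259 over a background of 37.4. Its interval of 2757 bp was longer than 99.5% of those at promoters, and it also held a weaker summit of enrichment 2.32 beyond the 1000 bp limit. The uncharacterised noncoding gene LOC124901324 has an end within 1000 bp of each of the 3 summits, so the site cannot be given to RUNX2 alone.

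RUNX3 had the reverse order, with the stronger summit at the distal start. This summit lay 121 bp upstream of the annotated start, 24965010 on chromosome 1. The 5′ end of the gene in the gene table is further out, at 24965138, and the summit lay 7 bp inside it. The summit had 4.36-fold enrichment and 147 fragments over a background of 32.9. At the proximal start, 24930276, the 2 summits had enrichments of 1.88 and 1.74 and pileups of 39 and 36, against a lowest pileup of 35 among the 70 summits. They lay 839 and 528 bp downstream, so that none fell within 500 bp of this start, and neither reached a −log10 q of 10. RUNX3-AS1, an antisense noncoding gene, has an end within 1000 bp of the distal summit and of one of the proximal summits.

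CBFB had its strongest end summit at the lower-coordinate end, 67029149 on chromosome 16. This summit lay 163 bp outside the gene, with 11.4-fold enrichment and 546 fragments over a background of 47.1. A second summit in the same interval had an enrichment of 2.95, and one at the upper end, 820 bp outside the gene, had 6.76.

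Base composition differed among the 5 starts with a sequence. The RUNX2 distal start, the one without a summit, had the lowest ratio of CG dinucleotides. It had a GC content of 42.7% and a ratio of observed to expected CG dinucleotides of 0.147. The ratio was 1.04 at the RUNX1 proximal start, 0.902 at the RUNX2 proximal start, 0.879 at the RUNX3 proximal start and 0.460 at the RUNX3 distal start. Over all promoters, 81.0% of those with a ratio of at least 0.6 had a summit within 1000 bp, and 17.6% of those with a ratio under 0.4. The RUNX3 proximal start, whose summits were the weakest of the starts with one, was in the first of these classes. These limits were chosen after the sequences were seen.

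**Figure D1:**
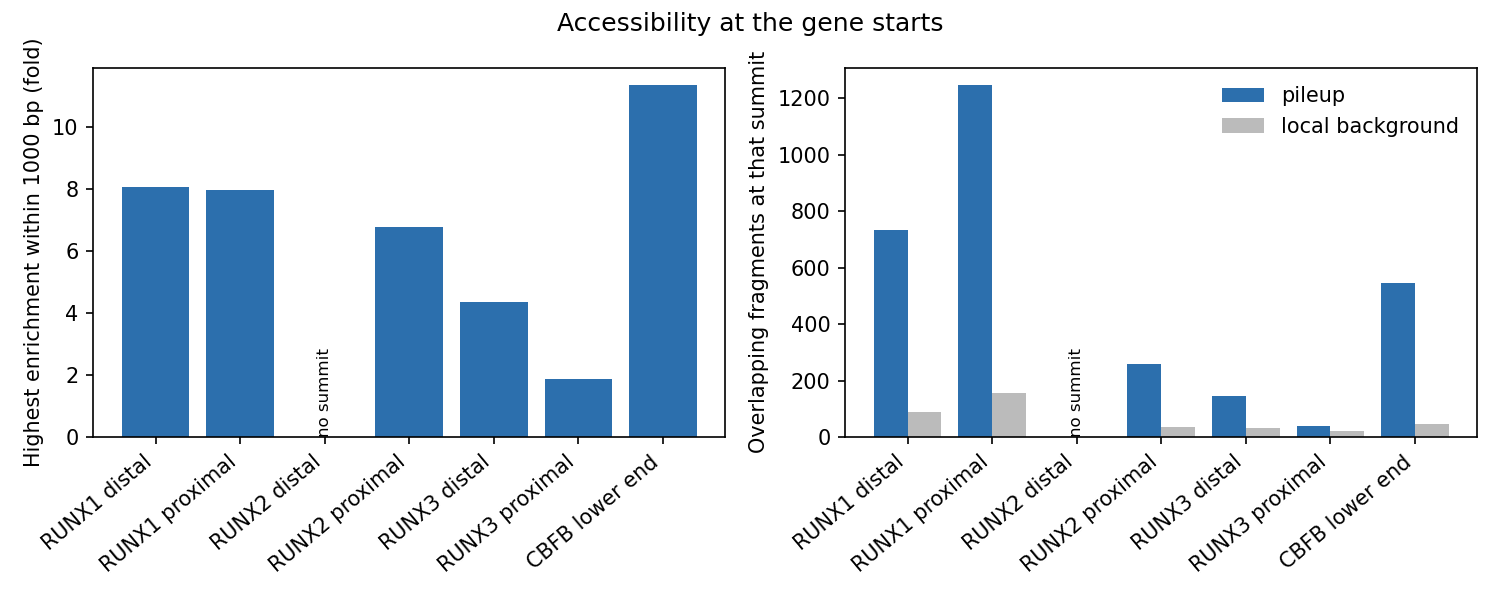
Left, the authors' highest enrichment (fold) within 1000 bp of each start, and right, the pileup and the local background (overlapping fragments) at the same summit, for the 6 RUNX starts and the lower-coordinate end of CBFB. The RUNX1 starts have enrichments of 8.08 and 7.99 but pileups of 733 and 1246, the RUNX2 distal start has no summit, and the RUNX3 proximal start is lowest of those with one, at 1.88. Values are from 1 pooled list and have no error bars.

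By enrichment, the RUNX starts lay in the lower part of the coding genes. The median of the highest enrichment at the starts was 11.9 over coding genes with such a summit. The values of RUNX1 (8.08), RUNX2 (6.77) and RUNX3 (4.36) exceeded those of 28.5%, 23.2% and 14.7% of these genes. CBFB, at 11.4, exceeded 46.4%. By pileup, RUNX1 was not low: its distal and proximal starts exceeded 50.3% and 70.6% of promoters with a summit. The RUNX2 proximal start exceeded 24.4% of them, the RUNX3 distal start 16.7% and the RUNX3 proximal start 1.20%.

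Summits were also counted by class. Of the 70, 2 were at distal promoters, 7 at proximal promoters, 3 at the ends of CBFB, 37 elsewhere inside the genes and 21 in the flanks. The last 2 classes made up 82.9%, while 91.1% of the summits in the windows of all coding genes lay over 1000 bp from every start of the gene. An end of another gene lay within 1000 bp of 12 of the 70 (17.1%), against 27.1% in the windows of all coding genes. In both shares over all coding genes, a summit was counted once for each window that held it, 194932 in all. In each of the 5 genes the strongest summit, counting the gene and its starts, lay over 1000 bp from every annotated start of that gene. In RUNX1 and RUNX2 it lay at the start of another gene, and in RUNX1T1 it was the sole summit. A position away from the starts held for 33.6% of all coding genes with a summit, and for 48.2% of those at least 50 kb long, a length that all 5 genes exceed. This count was chosen after the values were seen.

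RUNX1, the longest of the 5 at 262 kb, had 34 summits in 27 intervals, 48.6% of the total. Its enrichments ranged from 1.49 to 16.1 with a median of 4.33, and 10 of the 34 had a −log10 q under 10. The strongest summit of all 70, at 34836325, had 16.1-fold enrichment and 1853 fragments over a background of 114.3. It lay 213 kb into RUNX1, downstream of the proximal start, and 12 bp from the start of RUNX1-AS1, an antisense noncoding gene within RUNX1. Its pileup exceeded that of 84.4% of promoters with a summit. The 250 bases before the RUNX1-AS1 start are shown because the strongest site lies there. Capitals mark the AP-1 motif TGANTCA, picked from the 5 motifs searched after the sequences were seen. It was present 2 times here, 1 time at the RUNX2 distal start, which had no summit, and 0 times at the SUPT3H start described next, which was almost as strong. Of all promoters 7.71% held it and 0.515% held at least 2.

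RUNX1-AS1, chr21:34836063-34836312, plus strand: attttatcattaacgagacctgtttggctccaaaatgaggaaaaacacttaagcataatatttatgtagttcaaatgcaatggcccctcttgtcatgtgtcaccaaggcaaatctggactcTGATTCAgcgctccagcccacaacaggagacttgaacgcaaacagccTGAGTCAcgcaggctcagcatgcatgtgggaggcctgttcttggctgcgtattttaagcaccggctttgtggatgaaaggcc

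The other strong sites of RUNX1 lay on both sides of the proximal start. Between that start and the 3′ end of the gene, 101 kb, there were 16 summits, of which 6 had an enrichment over 5. A pair in 1 interval of 1349 bp, at 34807770 and 34808117, had enrichments of 9.06 and 7.89 and pileups of 1014 and 924. A site at 34823163 had 9.20-fold enrichment and 341 fragments. Between the 2 starts, 161 kb, there were 10 summits over 1000 bp from either, of which 2 had an enrichment over 5. The stronger of these, at 34900575, had 8.11-fold enrichment and 172 fragments over the lowest background in the list. Beyond the 3′ end, in the flank, the summit at 34771719 had 10.5-fold enrichment and 223 fragments, and had no gene end within 1000 bp.

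RUNX2 had 12 summits in 9 intervals over a gene of 223 kb. The strongest, at 45378045, had 15.8-fold enrichment and 1764 fragments over a background of 111. It lay 49.7 kb into RUNX2 and also 111 bp upstream of a start of SUPT3H, a gene for a subunit of SAGA-type histone acetylase complexes, which overlaps RUNX2 on the opposite strand. It was the 1 summit between the 2 starts of RUNX2, a section of 93.9 kb. Downstream of the proximal start, the strongest site was at 45445969, 118 kb from the 5′ end, with 12.8-fold enrichment and 365 fragments, and no gene end of another gene lay within 1000 bp. The other intragenic sites there had enrichments of 2.32 to 6.71, the last of them at 45543624.

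RUNX3 is the shortest of the 5, at 65.6 kb, and had 11 summits in 9 intervals. Its strongest site, at 24955302, 9.84 kb from the 5′ end, had 10.7-fold enrichment and 446 fragments over a background of 40.9. Another, at 24949442, had 7.10-fold enrichment and 241 fragments. Both lay between the 2 starts, and the 30.8 kb from the proximal start to the 3′ end held 0 summits over 1000 bp from that start. In the flanks, the highest value was 6.23, at 24889356, and a summit at 24966857, 1.72 kb upstream of the gene, had 5.18.

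CBFB had 12 summits in 10 intervals, but only 2 inside its 71.9 kb. Its count depended on the window, with 5 summits within 10 kb and 28 within 100 kb. One of these was the strongest, at 67055912, 26.8 kb from the lower-coordinate end, with 15.9-fold enrichment and 960 fragments over a background of 59.4. The flanks held 3 more summits with enrichments over 10. The first, at 67018114, had 12.4, and the second, at 67109868, had 12.9 and lay 73 bp from the start of PHAF1, the neighbouring gene. The third, at 67115809, had 14.0. CBFB was the member with the most summits over an enrichment of 10, with 5, against 2 in RUNX1, 2 in RUNX2, 1 in RUNX3 and 0 in RUNX1T1. Of the 5, 3 were these flank summits, outside the gene. For scale, 90.7% of all summits in the list had an enrichment below 10.5.

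RUNX1T1 had 1 summit in the 248 kb searched on chromosome 8, against a median of 9 per window over all coding genes. It was thus among the 96.3% of coding genes with at least 1 in their window. The RUNX1T1 summit lay inside the gene, at 92008642, with 3.89-fold enrichment, 82 fragments and a deposited −log10 q of 22.9. No summit lay within 1000 bp of either end.

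**Figure D2:**
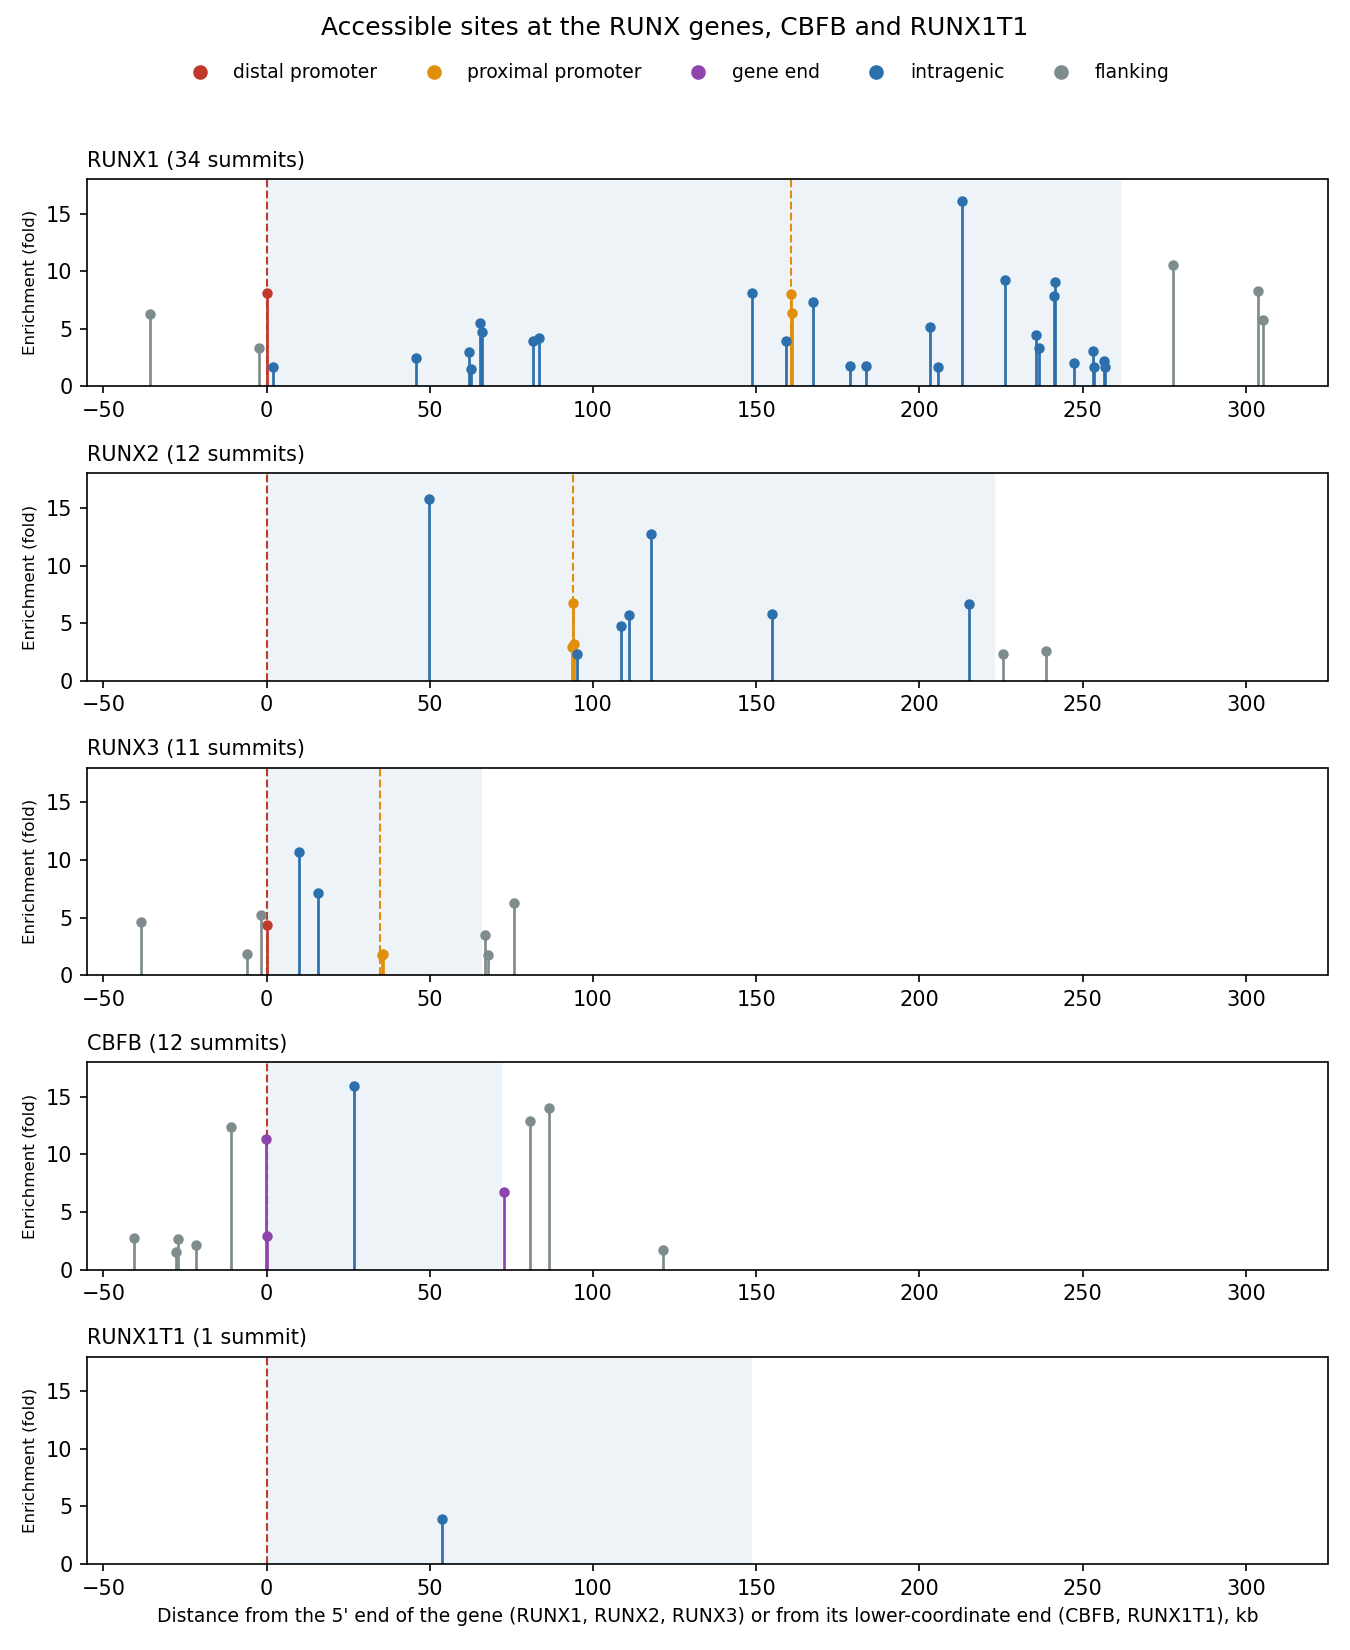
Enrichment (fold, vertical axis) of each summit against its distance in kb from the 5′ end of RUNX1, RUNX2 and RUNX3, or from the lower-coordinate end of CBFB and RUNX1T1. The shaded band is the gene, the red dashed line is position 0, the orange dashed line is the proximal start, and colours give the class of each summit. The highest point of each panel (16.1, 15.8, 10.7, 15.9 and 3.89) lies away from the dashed lines.

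Summits were also counted per length. RUNX1 had 9.41 summits per 100 kb of searched window, CBFB 6.98, RUNX3 6.64, RUNX2 3.72 and RUNX1T1 0.403. The median over all coding genes was 5.79, with quartiles of 2.97 and 9.67, so RUNX1, CBFB, RUNX3 and RUNX2 lay between the quartiles and RUNX1T1 below them. Of all coding genes, 73.5% had a lower density than RUNX1 and 4.09% a lower density than RUNX1T1. Within 10 kb of the genes in place of 50 kb, CBFB fell below the coding median, which was then 5.89, and RUNX1 and RUNX3 were the 2 above it. The highest enrichment in the window exceeded that of 75.9% of coding genes for RUNX1, 73.9% for CBFB, 71.8% for RUNX2, 24.0% for RUNX3 and 6.30% for RUNX1T1.

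**Figure D3:**
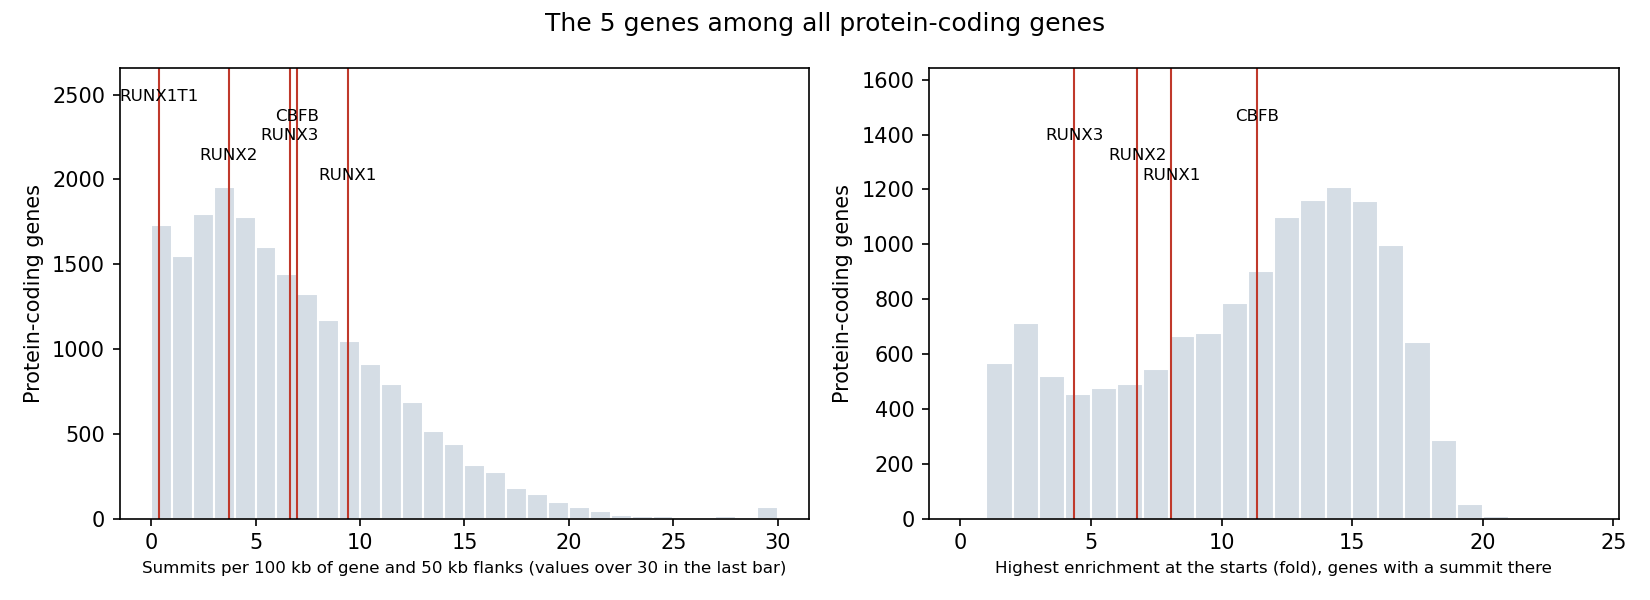
Grey bars count protein-coding genes by summits per 100 kb of gene and flanks (left) and by the highest enrichment at the starts (fold, right, genes with a summit there); red lines mark the RUNX genes, CBFB and RUNX1T1. RUNX1 (9.41) lies near the upper quartile of 9.67 in density while its start (8.08) is under the median of 11.9; RUNX1T1 has the lowest density of the 5 at 0.403 and no value on the right.

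Genes listed as acting with or downstream of RUNX were read in the same way. The number with a summit at a start is given beside the 67.0% of all coding genes. These lists were chosen with earlier results of these data known, and of their 73 genes 48 had starts in the promoter table; for the others either gene end was used. Among 11 corepressors, 9 had such a summit, with a median enrichment of 13.4. TLE4 (17.2) and TLE1 (16.5), Groucho-type corepressors that bind the carboxyl end of RUNX proteins, were highest, and TLE2 and CBFA2T3 had none. CBFA2T2 and CBFA2T3 are the paralogs of RUNX1T1. CBFA2T2 had 14.2 at a start, and CBFA2T3 had 11 summits inside the gene, up to 10.2, so both had more summits than RUNX1T1.

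Of 12 coactivators and partner factors, 9 had a start summit, with EP300 (15.3) and CREBBP (15.2), both histone acetyltransferases, highest. The 3 without one were the ETS factors FLI1 and ERG and the blood factor TAL1. All 7 genes listed under RUNX protein modification had one, led by the kinase CDK1 (16.6) and SUV39H1 (12.7). SUV39H1 is a methyltransferase of histone H3K9, so its place in this list does not mean that it modifies RUNX proteins.

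Of 10 genes listed as targets of RUNX2 in bone, 4 had start summits, with a median of 4.69. The 4 include DLX5 (3.05), whose place in this list does not mean that it is a target. SP7, the osteoblast transcription factor, had 7.60 and BGLAP, which encodes osteocalcin, had 5.47. SPP1, IBSP, COL1A1, COL1A2, COL10A1 and MMP13 had none. For SP7, DLX5, COL1A1, COL1A2 and MMP13 either gene end was used. Among 10 blood targets of RUNX proteins, 7 had one, close to the coding share, with a median of 6.96. GFI1B, a transcriptional repressor in blood lineages, had 14.8 and SPI1, a myeloid master factor, had 8.44, while IL3, MPO and PTPRC had none. For SPI1 and MPO either gene end was used.

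The labelled cell type was checked against marker lists at the same starts. Of 8 mesenchymal markers 7 had a start summit, with FN1 at 15.1 and COL6A1 at 10.0 highest and THY1 without one. For COL6A1 and THY1 either gene end was used. Of 7 blood markers only CD3E had one, at 14.5, and ITGAM, CD34, GATA1, HBB, CD79A and LYZ had none. For CD3E, HBB and LYZ either gene end was used. The CD3E summit lay outside the gene, near an end that is not known to be its start. Among 8 epithelial markers 3 had one: KRT8 at 12.7, EPCAM at 2.11 and KRT18 at 1.75. CDH1, KRT5, KRT14, ESRP1 and CLDN4 had none. For EPCAM, CDH1, KRT14, KRT18 and ESRP1 either gene end was used. The strongest summit inside KRT18 and the one at the KRT8 start had the same enrichment to all digits given, 12.6837. They may be 1 summit and are not to be read as 2 separate sites. An accessible start is not a measure of expression.

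**Figure D4:**
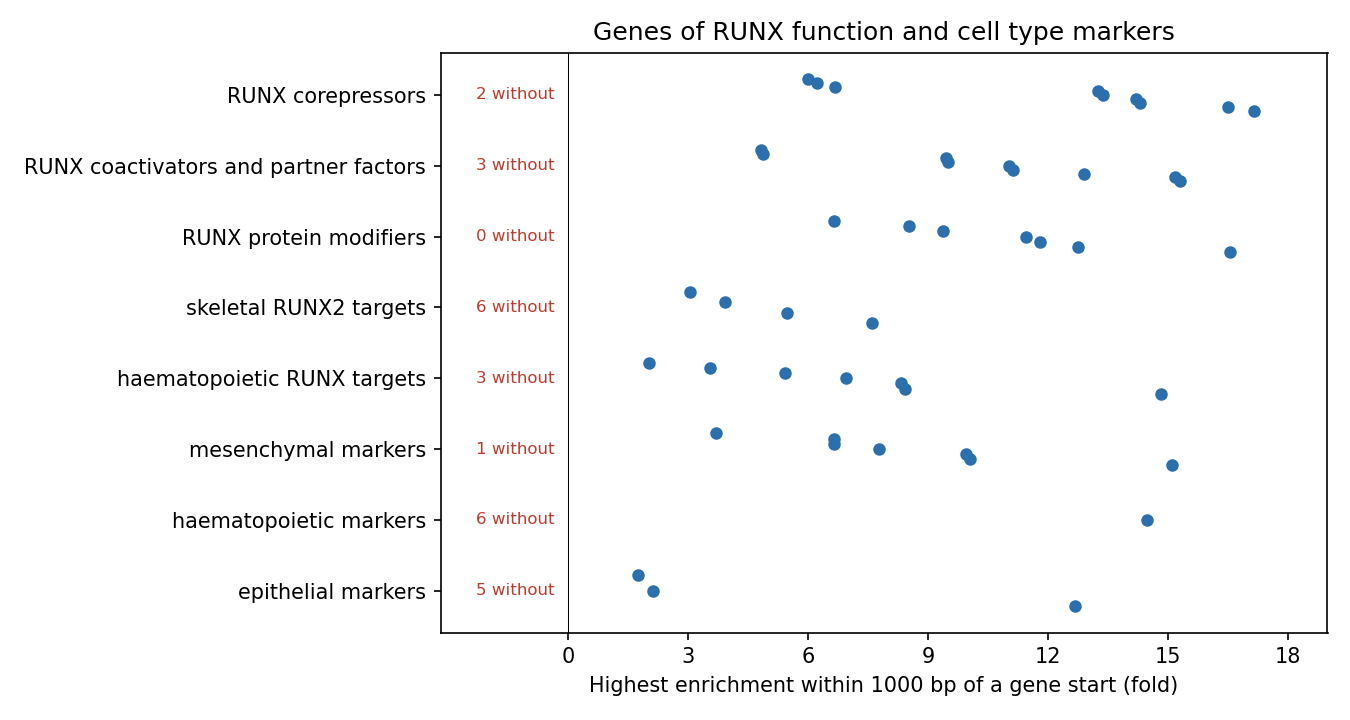
Each point is a gene with a summit within 1000 bp of a start, placed by its highest enrichment there (fold, horizontal axis) in its list (vertical axis); red text counts the genes without one. Corepressors and protein modifiers reach 17.2 and 16.6, and the listed bone targets reach 7.60 with 6 of 10 genes without a start summit.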

How the data were processed

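ATAC-seq was done on 12 libraries in 3 collagen groups. Per the submitters' processing notes, the tools were fastp 0.20.0, Bowtie2 2.4.3, deepTools 3.5.0, SAMtools and MACS2 2.2.7.1 with hg38; their options, and whether duplicates were removed, are not given in the sources used here. The deposited list has no header and 10 columns. Its enrichment is a ratio (fold over background), its p-value and q-value columns are −log10 values, and its score, derived from q by the authors, was not used. Coordinates are 1-based.

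Summits were assigned to genes of the RefSeq table (GRCh38.p14) in Python 3.11.15 with pandas 2.3.3. Of 20037 coding genes, 15842 had starts in the promoter table, and for the others both gene ends were used. Exon boundaries were not used here. Pileup and background were solved from enrichment = (pileup + 1)/(background + 1) and a Poisson upper tail, with SciPy 1.17.1, and tested on simulated data; the pileup was whole within 0.05 at all 70 summits and in 99.96% of the list. No label states this model. As the list is pooled, nothing was tested. Sites were named at the starts and, elsewhere, from the 5 highest of each gene, and further sites were named after their values were seen; of each gene list, the 2 highest genes and those without a start summit were named, with other genes chosen after their values were seen. For 2 genes of the lists, values are not reported here. Members and lists were chosen with earlier results of these data known.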

Additional observations from a re-analysis of the deposited data

How the results depend on the processing

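No paired analysis was possible because the pooled list has no column for a library, and leaving out single replicates was not run for the same reason. The total of 70 summits was 56 with a window of 10 kb, 50 at a −log10 q of at least 10, 56 with the strongest summit of each interval only, and 70 for intervals of at most 10 kb. It moved most with a window of 100 kb, to 107. The 4 genes with a start summit remained 4 in number with start windows of 500 and 2500 bp and at a −log10 q of at least 10, and were 3 when either gene end was used in place of the starts. With windows of 10 and 100 kb, CBFB had 5 and 28 summits in place of 12, and with 100 kb RUNX2 had 19 in place of 12 and RUNX3 22 in place of 11. RUNX3 had 7 of its 11 summits at a −log10 q of at least 10. By −log10 q in place of enrichment, RUNX2 took place 2 and CBFB place 3 in the order of the strongest sites. The number of genes whose strongest site lay away from the starts stayed at 5 with a start window of 2500 bp, an alternative chosen after the data were seen, when the share of all coding genes was 28.2%. Without depth per library, the absence of a summit means only that none was called in the pooled list.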

Other observations

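Some sites in the searched windows lay at the starts of other genes, named after their values were seen. In the flank of RUNX1, a summit lay 95 bp from the start of the noncoding gene LINC01426, with 8.32-fold enrichment and 303 fragments. In the flank of CBFB, the summit 15 bp from the start of CES4A, a carboxylesterase gene, had 2.72-fold enrichment and 57 fragments. No summit lay within 1000 bp of the starts of RUNX1-IT1 and RUNX2-AS1, noncoding genes at RUNX1 and RUNX2; the nearest were 7857 and 9727 bp away.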
